A study of Mus musculus with 18 samples.

Results

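The EGF receptor family and its ligands were followed through 18 RNA sequencing libraries of IMCD3 cells, a mouse kidney line from the inner medullary part of the collecting duct. The 9 genes were taken by name: the ligand genes Areg, Ereg, Hbegf, Tgfa, Epgn and Btc and the receptor genes Egfr, Erbb2 and Erbb3. All 9 were found among the 49845 gene rows of each library. The 6 groups, with 3 libraries each, were wild-type cells, an Ift140 knockout and a Dync2h1 knockout, each held static or placed under a fluid shear stress of about 0.7 dyne/cm2, for 3 h at 37 C. Every group had the same strain background, labelled Tg(SV40E)bri/7 and so carrying a viral transgene, and passage 10 to 15. The products of Ift140 and Dync2h1 work in the intraflagellar transport that builds the primary cilium, and the design set ciliated against non-ciliated cells. The labels give neither the number of clones behind each knockout nor whether the 3 libraries of a group were separate cultures, so the p-values measure only the spread between these libraries, which may be technical.

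Values are TPM (transcript shares scaled to a fixed total per library), which correct for gene length and hold no sequencing depth, rescaled between libraries by factors of 0.88 to 1.21. In the Ift140 knockout, Ift140 lay at 6.26 to 7.31 TPM in static culture against 16.5 to 19.4 in static wild type. Under flow the knockout had 7.61, 8.66 and 14.3 TPM, so that replicate 3 stood apart. That library also took the largest scaling factor and had the most genes at 1 TPM or more, 16076. Dync2h1 lay at 7.15 to 15.5 TPM in its knockout and at 28.3 to 45.2 in wild type. All 6 epithelial markers were detected. Their sum was 2631 to 2779 TPM in static wild type and 3847 to 3928 under flow, 3564 to 3844 and 3705 to 4981 in the Ift140 knockout, and 3513 to 3633 and 4602 to 4863 in the Dync2h1 knockout. Of 12 principal cell markers, however, only 2 passed the filter on low values, and Aqp2, Aqp3, Avpr2 and Scnn1a stayed below 1 TPM in every library. The summed proximal tubule markers, mainly Cubn and Lrp2, were at 375 to 450 TPM in wild type, 70.9 to 112 in the Ift140 knockout and 7.09 to 12.5 in the Dync2h1 knockout. Of these 6 markers, 3 (Slc34a1, Slc22a6 and Hnf4a) stayed below 1 TPM in every library, and Slc5a2 did not exceed 4.33 TPM. The part of these marker differences in the results below was not tested.

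The ligands are made as membrane-anchored precursors and act after a protease, mostly ADAM17 or ADAM10, has cut them loose. EGFR binds amphiregulin, TGF-alpha, HB-EGF, betacellulin, epiregulin and epigen, and then pairs with another receptor of the family. ERBB2 has no known ligand and ERBB3 has little kinase activity, so both signal mainly in pairs. In kidney tubules the pathway is known for its part in repair after injury and in cyst growth.

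A gene was tested where it reached 1 TPM in at least 3 of the 18 libraries, which 16688 genes did, among them 7 of the 9 members. Ereg and Epgn did not. Changes are differences of log2(scaled TPM + 1), a scale that understates the change of low genes, and a gene was called when its Benjamini-Hochberg adjusted p from limma was under 0.05. Under flow 4 members rose in wild type (Areg, Hbegf, Btc and Tgfa) and 1 fell (Erbb3). In each knockout 3 rose (Areg, Hbegf and Btc) and 1 fell (Erbb3). The background shares of all tested genes were 19.4% called and 9.92% higher in wild type, 16.2% and 8.08% in the Ift140 knockout, and 18.2% and 10.8% in the Dync2h1 knockout. The members were chosen with earlier results of these data known, so their counts are a description and no test of the set. Areg is counted although it passed the filter only through the flow libraries and the Dync2h1 knockout. The median change over the 7 members was 0.52, 0.03 and -0.01 in wild type, Ift140 and Dync2h1 cells, against -0.01, -0.01 and 0.03 over all genes.

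**Figure D1:**
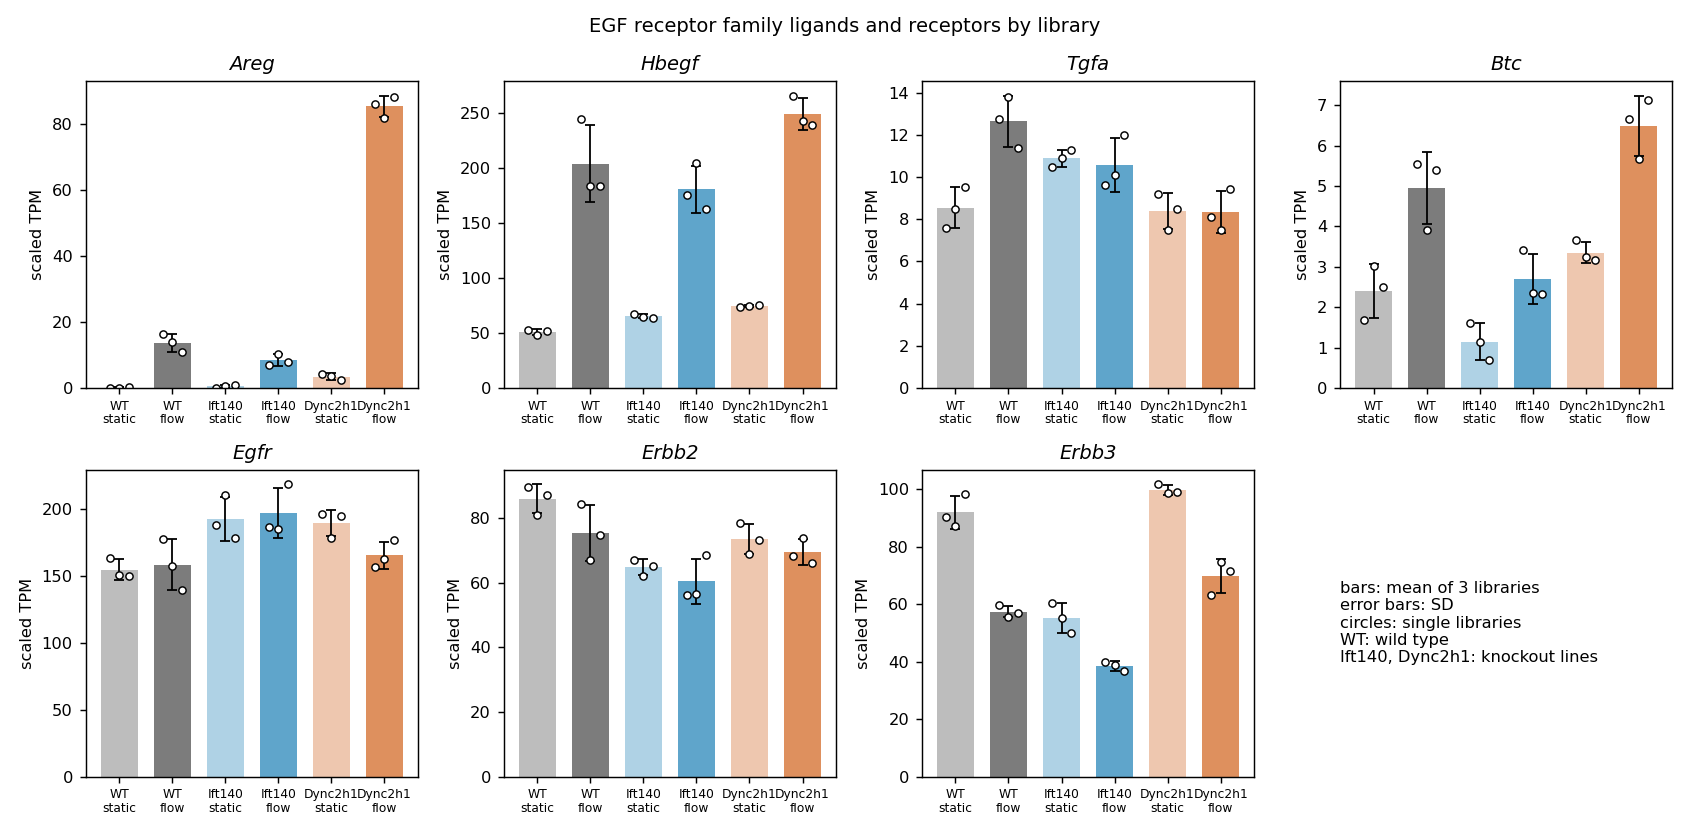
Scaled TPM of the 7 tested members (one panel each, linear axes from 0) in the 6 groups; bars are means of 3 libraries, error bars SD and circles single libraries. Areg stands near 0 in static wild-type cells and reaches 82.0 to 88.2 TPM in the Dync2h1 knockout under flow, while Erbb3 is lower under flow in each line.

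Areg encodes amphiregulin, an EGFR ligand. In static wild-type libraries it was listed at 0, 0.106 and 0.177 TPM, and under flow at 16.2, 13.8 and 10.9. The Ift140 knockout had 0.112, 0.466 and 1.00 TPM static and 7.06, 10.4 and 7.89 under flow. The Dync2h1 knockout had 4.27, 3.64 and 2.43 TPM static and 86.3, 82.0 and 88.2 under flow. Flow and static libraries did not overlap in any line, and the Dync2h1 knockout under flow was far above every other group. In wild-type cells the rise was 3.73 (SE 0.21, limma adjusted p = 7.7e-09). No fold is given there because 1 library was at 0, and Areg passed the filter only through the flow libraries and the Dync2h1 knockout. It rose by 2.65 (16-fold, SE 0.21, adjusted p = 4.8e-07) in the Ift140 knockout and by 4.30 (24.8-fold, SE 0.21, adjusted p = 1.63e-09) in the Dync2h1 knockout. The size of the rise moved with the pseudocount: with 5 and 0.1 TPM in place of 1 it was 1.86 and 6.25 in wild type and 1.28 and 4.05 in the Ift140 knockout, and was called each time. In these bulk libraries more RNA per cell and more cells that express a gene cannot be told apart.

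From lowest to highest, the groups ran from static wild type through static Ift140, static Dync2h1, Ift140 flow and wild-type flow to Dync2h1 flow, and static wild type and static Ift140 were the only neighbours to overlap. The Dync2h1 knockout was above wild type by 2.0 (SE 0.21, limma adjusted p = 4.39e-06) in static culture and by 2.58 (SE 0.21, 6.25-fold, adjusted p = 2.95e-07) under flow. The static difference was 0.72 with a pseudocount of 5 and 4.27 with 0.1, called with both. The Ift140 knockout lay 0.44 above static wild type (adjusted p = 0.173; 1.51 and 0.0363 with a pseudocount of 0.1). Under flow it lay at -0.64 against wild type (adjusted p = 0.0575), with no overlap between the groups. This last difference passed with a pseudocount of 5 (adjusted p = 0.0122). It also passed without wild-type flow replicate 3 (0.0457), Ift140 static replicate 1 (0.0376) or 3 (0.0331), Ift140 flow replicate 2 (0.0307) or Dync2h1 static replicate 3 (0.0485).

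Promoter sequences were in the RefSeq table (GRCm38.p6) for 6 of the 9 members. Shown here, 5′ to 3′ on the gene's strand, are the 250 bases before the start of the 3 ligand genes that rose under flow in wild-type cells and had an entry: Areg at chr5:91139349-91139598 (plus strand), Btc at chr5:91402995-91403244 (minus strand) and Tgfa at chr6:86194972-86195221 (plus strand). Capitals mark matches to any of the 5 motifs searched.
Areg: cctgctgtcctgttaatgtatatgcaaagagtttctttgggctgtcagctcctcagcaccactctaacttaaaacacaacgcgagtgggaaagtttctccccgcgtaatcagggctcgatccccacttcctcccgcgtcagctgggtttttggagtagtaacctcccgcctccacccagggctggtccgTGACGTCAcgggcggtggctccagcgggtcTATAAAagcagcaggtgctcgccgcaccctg
Btc: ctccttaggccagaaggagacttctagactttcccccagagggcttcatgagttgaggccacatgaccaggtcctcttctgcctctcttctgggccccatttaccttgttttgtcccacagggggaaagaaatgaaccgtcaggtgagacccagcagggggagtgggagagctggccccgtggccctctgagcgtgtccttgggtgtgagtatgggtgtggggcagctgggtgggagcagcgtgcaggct
Tgfa: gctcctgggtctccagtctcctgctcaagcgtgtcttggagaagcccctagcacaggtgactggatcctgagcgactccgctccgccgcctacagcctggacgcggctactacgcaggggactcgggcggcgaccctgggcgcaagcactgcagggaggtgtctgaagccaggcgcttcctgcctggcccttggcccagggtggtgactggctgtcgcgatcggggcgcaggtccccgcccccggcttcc
The motifs, searched on both strands, were the cyclic AMP response element TGACGTCA, the AP-1 site TGANTCA, the NRF2 element core TGACNNNGC, the TEAD site GGAATG and the TATA box TATAAA; TGACNNNGC can share bases with the first 2 of these. The Areg window held TGACGTCA 61 to 54 bases before the start and TATAAA 31 to 26 bases before it. Among 32851 RefSeq promoters of the same length, 1.55% held TGACGTCA and 12.4% TATAAA. The shares were 6.75% for TGANTCA, 10.2% for TGACNNNGC and 12.6% for GGAATG. Neither the Btc nor the Tgfa window held any of the 5, which says only that these letters are not in these windows. Such a match is a description of the sequence, and no binding was measured.

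Areg, Ereg, Epgn and Btc lie in 1 cluster on chromosome 5. In GENCODE vM21 (GRCm38), Epgn spans 91027464 to 91035215, Ereg 91074622 to 91093646 and Areg 91139599 to 91148432 on the plus strand, and Btc 91357261 to 91402994 on the minus strand. Besides Areg, 13 protein-coding genes start within 500 kb of its start, and 8 of them were tested. Of these 8, flow raised 2 and lowered 1 in wild type, raised 3 in the Ift140 knockout, and raised 3 and lowered 1 in the Dync2h1 knockout, beside 19.4%, 16.2% and 18.2% of all genes called. Btc was among those raised in each line. Of the others, Cxcl1 and Cxcl2, which encode neutrophil-attracting chemokines, were singled out after their values had been seen. Cxcl1, 248 kb from Areg, rose by 2.45 in wild type, 1.79 in the Ift140 knockout and 3.03 in the Dync2h1 knockout (limma adjusted p = 2.91e-07, 1.19e-05 and 3.53e-08). Cxcl2, 236 kb away, went from 0.997 to 20.9 TPM in the Dync2h1 knockout, a rise of 3.44 (adjusted p = 1.03e-08). Its change was 0.47 (adjusted p = 0.115) in wild type and 0.56 (0.0684) in the Ift140 knockout. The response of Cxcl2 in the Dync2h1 knockout exceeded that in wild type by 2.97 (adjusted p = 6.67e-05). Outside the Dync2h1 knockout under flow, group means of Cxcl2 were 0.313 to 1.08 TPM, near the filter and the pseudocount of 1 TPM. How this difference moves with the pseudocount is not given here. For Cxcl1 the same difference, Dync2h1 knockout minus wild type, was 0.57 (adjusted p = 0.548). Cxcl5, also tested, was called only in the Ift140 knockout, with a rise of 0.78 (adjusted p = 0.013). Its change in the Dync2h1 knockout was -0.10 (0.776). Ppbp, another chemokine gene tested there, fell by 0.58 in the Dync2h1 knockout (0.0017) and was called in no other line. Ereg and Epgn, which lie between these chemokine genes and Areg, stayed near 0.

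**Figure D2:**
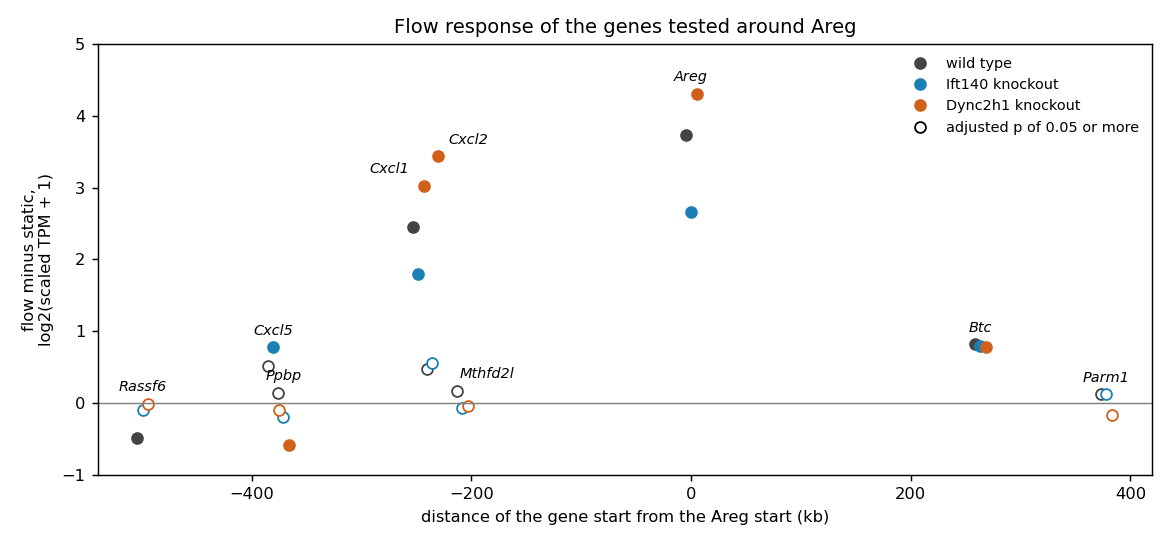
Flow minus static difference in log2(scaled TPM + 1) for Areg and the 8 tested genes around it, against the distance of each gene start from the Areg start in kb; colours are the 3 lines, small sideways shifts keep points apart, and open circles have an adjusted p of 0.05 or more. Areg and Cxcl1 are raised in each line, while Cxcl2 goes from 0.47 in wild type to 3.44 in the Dync2h1 knockout.

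Hbegf encodes HB-EGF, a ligand of EGFR and ERBB4, and spans 36504927 to 36515805 on the minus strand of chromosome 18. Wild-type libraries had 52.3, 47.7 and 52.0 TPM static and 244, 183 and 183 under flow. Ift140 knockout libraries had 67.3, 64.6 and 63.5 TPM static and 175, 204 and 162 under flow. Dync2h1 knockout libraries had 73.5, 74.0 and 75.0 TPM static and 265, 242 and 239 under flow. Each flow library was above every static one, and the 3 flow groups overlapped with their neighbours while the 3 static groups did not. The gene rose under flow by 1.97 (4.02-fold, SE 0.10, limma adjusted p = 3.06e-09) in wild type. The rise was 1.45 (2.77-fold, SE 0.10, adjusted p = 1.46e-07) in the Ift140 and 1.73 (3.35-fold, SE 0.10, adjusted p = 1.65e-08) in the Dync2h1 knockout. In static culture Hbegf was higher than in wild type by 0.54 in the Dync2h1 knockout (SE 0.10, adjusted p = 0.00109).

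Smaller differences of Hbegf between the lines were called less firmly. In the static Ift140 knockout it was higher by 0.36 (limma adjusted p = 0.0274). That call was lost in turn without each of the 6 libraries compared, with adjusted p of 0.0555, 0.103 and 0.0546 without wild-type replicates 1, 2 and 3 and 0.0814, 0.0604 and 0.0546 without those of the knockout. It was also lost with no filter on low values (0.0525). The Dync2h1 knockout under flow was higher by 0.30 (adjusted p = 0.0404) although its libraries overlapped those of wild type. This call was kept in only 8 of 18 fits that left out 1 library each, whose adjusted p reached 0.162 without wild-type flow replicate 2. The difference was 0.15 on the deposited TPM (adjusted p = 0.317) and 0.14 with quantile normalisation (0.306). Under flow the Ift140 knockout lay at -0.17 against wild type (adjusted p = 0.307).

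Btc encodes betacellulin, a ligand of EGFR and ERBB4. Its wild-type libraries had 1.69, 3.02 and 2.50 TPM static and 5.54, 3.92 and 5.40 under flow. The Ift140 knockout had 1.61, 1.13 and 0.687 TPM static and 3.41, 2.36 and 2.34 under flow. The Dync2h1 knockout had 3.66, 3.24 and 3.17 TPM static and 6.67, 5.68 and 7.14 under flow. The flow libraries were above the static ones of the same line in all 3 lines. The rises were 0.81 in wild type, 0.80 in the Ift140 knockout and 0.78 in the Dync2h1 knockout (SE 0.19 each, limma adjusted p = 0.00661, 0.00925 and 0.00964), or 2.06-, 2.37- and 1.94-fold. With a pseudocount of 5 they were 0.43, 0.33 and 0.46, still called. The rise in the Ift140 knockout was not called when only those 6 libraries were fitted (adjusted p = 0.113).

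Against wild type, Btc was lower in the Ift140 knockout by 0.67 in static culture (limma adjusted p = 0.0245) and by 0.69 under flow (adjusted p = 0.0251), with no overlap in either condition. With a pseudocount of 5 the differences were -0.27 (adjusted p = 0.055) and -0.37, and with 0.1 the static one was -1.05. The static call was lost without wild-type static replicate 2 or 3 (adjusted p = 0.112 and 0.0732) or Ift140 static replicate 2 or 3 (0.0554 and 0.115). The flow call was lost without wild-type flow replicate 1 or 3 (0.0916 and 0.0855) or Ift140 flow replicate 2 or 3 (0.0603 and 0.0697). In the Dync2h1 knockout the differences were 0.37 static and 0.34 under flow (adjusted p = 0.171 and 0.207).

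Tgfa encodes TGF-alpha, another EGFR ligand, and spans 86195223 to 86275719 on the plus strand of chromosome 6. It had 7.61, 8.48 and 9.55 TPM in static wild-type libraries and 12.8, 13.8 and 11.4 under flow. In the Ift140 knockout it had 10.5, 10.9 and 11.3 TPM static and 9.62, 10.1 and 12.0 under flow. In the Dync2h1 knockout it had 9.20, 7.50 and 8.51 TPM static and 8.13, 7.51 and 9.45 under flow. The wild-type groups did not overlap, while those of each knockout did. Tgfa rose by 0.52 in wild type (1.48-fold, SE 0.12, limma adjusted p = 0.00614). Its change was -0.04 (95% interval -0.30 to 0.21) in the Ift140 and -0.01 (-0.26 to 0.25) in the Dync2h1 knockout. Under flow it was lower in the Dync2h1 knockout than in wild type by 0.55 (SE 0.12, adjusted p = 0.00288). Static Ift140 cells lay 0.32 above static wild type (adjusted p = 0.0799, and 0.0476 without Ift140 flow replicate 3).

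Epgn and Ereg, the genes of epigen and epiregulin, had next to no transcripts. Epgn did not exceed 0.25 TPM and was listed at 0 in 2 libraries. Ereg was listed at 0 in 17 of 18 libraries and at 0.01 TPM in Ift140 knockout flow replicate 1. No reads and a failed estimate look alike in such a 0.

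Among the 6 ligands Hbegf made up most of the transcripts, and the Areg share varied most between the lines. The summed ligand TPM went from 61.7 ± 2.49 to 235 ± 38.2 (mean ± SD, n = 3) under flow in wild type. It went from 77.7 ± 1.62 to 202 ± 21.9 in the Ift140 knockout and from 89.4 ± 1.19 to 349 ± 15.4 in the Dync2h1 knockout. Flow and static sums overlapped in no line. Areg was 0.151% of the ligand sum in static wild type and 5.81% under flow, 0.684% and 4.16% in the Ift140 knockout, and 3.85% and 24.5% in the Dync2h1 knockout. The Hbegf share was 82.1% to 89.2% in the other groups and 71.2% in the Dync2h1 knockout under flow. The mean summed receptor TPM was lower under flow in each line. It went from 333 to 291 in wild type, from 312 to 296 in the Ift140 knockout and from 363 to 305 in the Dync2h1 knockout. Flow and static receptor sums overlapped in wild type and the Ift140 knockout but not in the Dync2h1 knockout. Transcripts of these 6 ligands per transcript of the 3 receptors were 0.186 static and 0.804 under flow in wild type. They were 0.249 and 0.689 in the Ift140 knockout and 0.247 and 1.15 in the Dync2h1 knockout. The ligand sum leaves out Egf and Nrg1, which encodes a ligand of ERBB3 and had group means of 15.7 to 32.0 TPM. These sums are levels of RNA and were not tested.

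Erbb3, on the minus strand of chromosome 10 (128567523 to 128589652), was the receptor gene that responded to flow. Wild-type libraries had 90.4, 87.3 and 98.3 TPM static and 59.5, 55.7 and 57.1 under flow. The Ift140 knockout had 60.4, 55.1 and 50.1 TPM static and 39.9, 39.0 and 36.7 under flow. The Dync2h1 knockout had 102, 98.6 and 98.9 TPM static and 63.0, 74.7 and 71.7 under flow. All flow libraries were below the static ones of their line, and the static Ift140 knockout overlapped wild type under flow. Erbb3 fell by 0.67 (SE 0.08, limma adjusted p = 2.82e-05) in wild type, by 0.50 (SE 0.08, adjusted p = 0.000488) in the Ift140 knockout and by 0.51 (SE 0.08, adjusted p = 0.000355) in the Dync2h1 knockout. The fall in the Ift140 knockout was not called when only its 6 libraries were fitted (adjusted p = 0.062).

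The Ift140 knockout had less Erbb3 than wild type in both conditions, by 0.73 in static culture (SE 0.08, limma adjusted p = 1.81e-05) and by 0.56 under flow (SE 0.08, adjusted p = 0.000225). The Dync2h1 knockout differed by 0.12 in static culture (adjusted p = 0.323) and was higher by 0.27 under flow (adjusted p = 0.0181). The latter call was lost on the deposited TPM without further scaling, where the difference was 0.12 (adjusted p = 0.35). It was also lost without wild-type flow replicate 2 (0.0643) or Dync2h1 flow replicate 2 (0.0853) or 3 (0.0615).

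Egfr, on the plus strand of chromosome 11 (16752203 to 16918158), was the most abundant receptor gene, at 140 to 219 TPM over the 18 libraries. Group means in wild type were 155 ± 7.83 TPM static and 159 ± 19.1 under flow. They were 192 ± 16.4 and 197 ± 18.8 in the Ift140 knockout and 190 ± 9.63 and 166 ± 10.1 in the Dync2h1 knockout. Static and flow libraries overlapped in wild type and in the Ift140 knockout but not in the Dync2h1 knockout. The flow changes were 0.03, 0.03 and -0.20 (limma adjusted p = 0.888, 0.871 and 0.182), with 95% intervals of -0.18 to 0.23, -0.17 to 0.24 and -0.40 to 0.01. Egfr was higher than in wild type by 0.31 in the static Ift140 knockout, by 0.29 in the static Dync2h1 knockout and by 0.31 in the Ift140 knockout under flow (adjusted p = 0.0367, 0.0336 and 0.0398). These 3 calls were kept in 13, 14 and 9 of 18 fits that left out 1 library each. The highest adjusted p were 0.141 without Ift140 static replicate 2, 0.102 without wild-type static replicate 3 or Dync2h1 static replicate 1, and 0.17 without wild-type flow replicate 3. None of the 3 was called on the deposited TPM (0.0631, 0.141 and 0.0763).

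Erbb2, also on chromosome 11 (98412470 to 98437716, plus strand), ranged from 56.2 to 89.6 TPM. Wild-type means were 85.9 ± 4.51 TPM static and 75.3 ± 8.56 under flow, those of the Ift140 knockout 64.8 ± 2.50 and 60.4 ± 7.03, and those of the Dync2h1 knockout 73.4 ± 4.67 and 69.4 ± 4.04. Static and flow libraries overlapped in every line, and the flow changes of -0.19, -0.11 and -0.08 were not called (limma adjusted p = 0.182, 0.516 and 0.617). Erbb2 was lower in the Ift140 knockout than in wild type by 0.40 in static culture (adjusted p = 0.00822) and by 0.31 under flow (adjusted p = 0.0367). On the deposited TPM neither difference was called (0.11 and 0.245). The flow call was also lost without wild-type flow replicate 1 (0.156) or 3 (0.0822) or Ift140 flow replicate 1 (0.11) or 2 (0.0868).

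**Figure D3:**
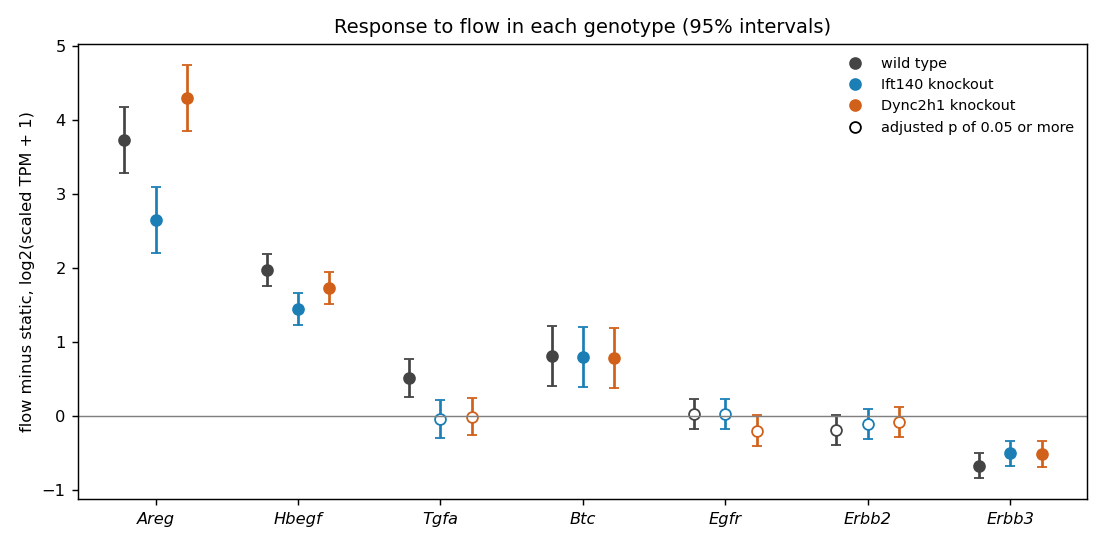
Flow minus static difference in log2(scaled TPM + 1) of the 7 tested members in each line, with 95% intervals from limma; open circles have an adjusted p of 0.05 or more. Tgfa is called in wild type, with a difference between lines that was not called, and Egfr and Erbb2 are called in no line.

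Without replicate 3 of the Ift140 knockout under flow, which stood apart in Ift140 itself, the flow changes in that line were 2.69 for Areg, 1.52 for Hbegf, 0.87 for Btc and -0.47 for Erbb3 (limma adjusted p = 3.51e-06, 2.91e-07, 0.0118 and 0.00155). All 4 remained called, and Tgfa, Egfr and Erbb2 remained without a call (0.518, 0.803 and 0.15). Against wild type under flow, the calls of Erbb2 (-0.41) and Erbb3 (-0.53) were kept without it (adjusted p = 0.00645 and 0.000743). Those of Btc (-0.62) and Egfr (0.24) were lost (0.0697 and 0.12).

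Whether the response to flow itself differed between lines was tested as the difference of 2 differences. No member was called in either knockout against wild type, where 0.198% of genes (Ift140) and 0.384% (Dync2h1) were called over all genes. At an unadjusted p under 0.05 there were 3 members and 7.5% of genes for Ift140, and 1 member and 9.2% of genes for Dync2h1. Both differences share the wild-type libraries. For the Ift140 knockout the difference was -1.08 for Areg (SE 0.30, limma adjusted p = 0.273), -0.52 for Hbegf (SE 0.15, adjusted p = 0.273) and -0.56 for Tgfa (SE 0.17, adjusted p = 0.327). That of Areg was -0.59 with a pseudocount of 5 and -2.20 with 0.1, called with neither. For the Dync2h1 knockout that of Tgfa was -0.52 (SE 0.17, adjusted p = 0.299) and that of Hbegf -0.24 (SE 0.15, adjusted p = 0.699). The 95% intervals for Btc ran from -0.59 to 0.56 and from -0.61 to 0.54, and those for Erbb3 from -0.08 to 0.41 and from -0.09 to 0.40.

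The Areg difference in the Dync2h1 knockout turned with the pseudocount. It was 0.57 (95% interval -0.06 to 1.21, limma adjusted p = 0.614) with the pseudocount of 1 TPM, 1.56 (adjusted p = 0.000123) with 5 and -1.62 with 0.1. Areg was near 0 in static wild type and not in the static Dync2h1 knockout. The line was thus higher in both conditions, while whether its response was larger depended on the scale.

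Of the 7 tested members, 5 differed between the static Ift140 knockout and wild type, where 16.5% of all genes were called: Hbegf and Egfr were higher, and Btc, Erbb2 and Erbb3 lower. In the static Dync2h1 knockout 3 were higher (Areg, Hbegf and Egfr) and none lower, beside 26.2% of all genes called. Under flow the Ift140 knockout had 1 member higher (Egfr) and 3 lower (Btc, Erbb2 and Erbb3), beside 14% of all genes called. The Dync2h1 knockout under flow had 3 higher (Areg, Hbegf and Erbb3) and 1 lower (Tgfa), beside 29.2%. The median change of the members was 0.31, 0.29, -0.31 and 0.27 in these 4 comparisons, against -0.02, 0.00, -0.02 and 0.03 over all genes. Both knockouts were set against the same wild-type libraries, and the members were chosen with earlier results of these data known.

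Other genes of the pathway were read from 4 lists, whose counts under flow stand beside 19.4%, 16.2% and 18.2% of all genes called in wild type, Ift140 and Dync2h1 cells. Of the remaining ligands and receptor (Egf, Nrg1 to Nrg4 and Erbb4), 3 of 6 were tested and none responded to flow. Erbb4, a receptor for HB-EGF, betacellulin and the neuregulins, did not exceed 0.0591 TPM, and Nrg3 was listed at 0. Nrg1, which encodes a ligand of ERBB3 and ERBB4, was higher in the Ift140 knockout than in wild type by 0.64 static and 0.56 under flow (limma adjusted p = 0.00116 and 0.00376), and lower in the Dync2h1 knockout under flow by 0.42 (adjusted p = 0.0111). Egf, the gene of epidermal growth factor, was lower than in wild type in the static Ift140 knockout (0.588 against 1.62 TPM, -0.69 on the log2 scale, adjusted p = 0.0348) and in the Dync2h1 knockout under flow (0.445 against 1.80 TPM, -0.95, adjusted p = 0.00301). Its values, 0.266 to 2.30 TPM over all libraries, lie near the filter and the pseudocount of 1 TPM. How these Egf differences move with the pseudocount is not given here. Of the tested genes of this list no other was called against wild type.

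Among genes for ligand shedding and trafficking, 10 of 11 were tested. Flow raised 2 in wild type and 1 in each knockout, and lowered none. Rhbdf1, whose product iRhom1 carries ADAM17 to the cell surface, had 90.9, 98.6 and 89.2 TPM in static wild type and 168, 149 and 150 under flow, without overlap. It rose by 0.74 in wild type, 0.48 in the Ift140 knockout and 0.65 in the Dync2h1 knockout (limma adjusted p = 4.61e-06, 0.00037 and 1.9e-05). Timp3, which encodes an inhibitor of ADAM17, rose by 0.79 in wild type (adjusted p = 0.0036). It was also higher than in wild type in the Dync2h1 knockout by 2.28 static and 1.71 under flow (adjusted p = 9.99e-08 and 2.16e-06), and in the Ift140 knockout by 1.48 and 0.92 (2.33e-05 and 0.00177). None of the protease genes of the list was called for flow in any line.

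All 19 genes for receptor inhibitors and turnover were tested, and flow raised 5 and lowered 1 in wild type, raised 4 in the Ift140 knockout, and raised 5 and lowered 1 in the Dync2h1 knockout. Errfi1, which encodes MIG6, an inhibitor of the EGFR kinase, was first by p in each line. It had 43.1, 42.8 and 43.3 TPM in static wild type and 159, 146 and 138 under flow. Its rise was 1.75 (SE 0.07, limma adjusted p = 1.63e-10) in wild type, 1.27 (SE 0.07, adjusted p = 1.1e-08) in the Ift140 and 1.56 (SE 0.07, adjusted p = 1.21e-09) in the Dync2h1 knockout. Ptprj, the gene of a receptor-type tyrosine phosphatase, rose by 0.59 in wild type (adjusted p = 5.18e-05), and Stam, the gene of an endosomal sorting protein, fell by 0.62 (adjusted p = 0.000218). Lrig1, whose product lowers the level of the receptors, had 193, 180 and 191 TPM in static wild type and 67.9, 84.8 and 73.7 in the static Dync2h1 knockout. It was lower there by 1.31 and under flow by 1.42 (adjusted p = 1.55e-08 and 5.67e-09), with no call in the Ift140 knockout.

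The 34 adaptors and kinases downstream gave 6 higher and 5 lower under flow in wild type, 8 and 1 in the Ift140 knockout, and 7 and 3 in the Dync2h1 knockout (background 19.4%, 16.2% and 18.2% of all genes, either direction). In wild type Map2k1, the gene of the kinase MEK1, fell by 0.58, while the adaptor gene Crk rose by 0.52 and Rasa1, the gene of a RAS GTPase-activating protein, by 0.51 (limma adjusted p = 0.000182, 0.000336 and 0.00126). No gene of the 4 lists was called for a difference in its response to flow. The lists' median flow changes in wild type were 0.12, 0.10, 0.16 and 0.06, in the order given here, against -0.01 over all genes.

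For each member the 3 genes with the most similar pattern over the 18 libraries were named by Pearson's r of log2 values, as a description only: the libraries share their groups. Areg was most like Cxcl1 (r = 0.988), Lif (0.978) and Pmaip1 (0.977). Hbegf was most like Plaur (0.990), Dusp5 (0.990) and Tnfrsf12a (0.989). Btc came closest to Fam110c (0.947), Tgfa to Ptprj (0.835) and Erbb3 to Kif13b (0.966). Egfr came closest to Gys1 (0.796) and Erbb2 to Piezo2 (0.864). Between members r ranged from -0.61 for Tgfa with Erbb3 to 0.92 for Areg with Hbegf. The next highest values were 0.81 for Areg with Btc, 0.72 for Hbegf with Btc and 0.69 for Erbb2 with Erbb3. Ptprj was picked for its likeness to Tgfa over these same libraries, so a similar flow pattern follows from the choice. Its changes under flow were 0.59 in wild type, 0.18 in the Ift140 knockout and 0.21 in the Dync2h1 knockout (limma adjusted p = 5.18e-05, 0.128 and 0.0754). The differences between its responses were not called (0.229 and 0.191).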

How the data were processed

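RNA sequencing of total RNA gave 1 file for each of 18 libraries. Per the submitters' processing notes, the authors used FastQC 0.11.5, Bowtie2 2.1.0 and RSEM 1.2.31, and the builds listed are mm10 and GRCm38.p5; settings and annotation release are not given in the sources used here. The deposited values are TPM, read from the values: each file's gene rows sum to about 1000000, and a leading row that repeats this sum was dropped. TPM keeps no depth, so its precision is not known. Here libraries were scaled by a trimmed mean of log ratios (30% of ratios and 5% of abundances trimmed, no weights), and genes with at least 1 TPM in 3 libraries were kept. limma 3.58.1 in R 4.3.3 fitted 6 group means to log2(scaled TPM + 1) over all 18 libraries, with a mean-variance trend and Benjamini-Hochberg adjustment over 16688 genes for each of 9 comparisons. The smallest p of an exact permutation test with 3 libraries a group is 0.1; smaller ones come from the model. The method was tested on simulated data. All 9 members were described. Up to 3 genes of each pathway list were named, by smallest p among those called. The members and lists were chosen with earlier results of these data known. The replicate numbers of the labels did not pair the libraries (45 same-number pairs, 3 with a correlation above 0.1). Alternatives changed the scaling, pseudocount, filter, libraries fitted, and use of replicate numbers. 1 gene of the pathway lists is not reported here by name.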

Additional observations from a re-analysis of the deposited data

How the results depend on the processing

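Of 29 calls of a member in the 9 comparisons, 17 were kept in every setting, 12 were lost in at least 1 and 0 reversed. The flow response of wild type (5 members called) and of the Dync2h1 knockout (4) kept its count in every setting run. In the Ift140 knockout 2 members were called instead of 4, and 583 genes instead of 2704, when only its libraries were fitted. The static Ift140 knockout against wild type had 5 members called, 3 on the deposited TPM, 2 with no filter and 2 to 6 when 1 library was left out. Under flow that comparison had 4, with 2 on the deposited TPM, 2 with quantile normalisation, 1 with no filter, 1 with only the groups compared (576 genes instead of 2343) and 2 to 5 when 1 library was left out. The Dync2h1 knockout under flow had 4, with 2 on the deposited TPM and 2 to 4 when 1 library was left out. For the differences between flow responses, 1 member (Areg, Dync2h1) was called with a pseudocount of 5 and 0 otherwise. Over all genes the Ift140 difference gave 33 calls, 19 on the deposited TPM, 55 with no filter, 5 with only the groups compared, and 11 (without Ift140 static replicate 1) to 68 (without Ift140 flow replicate 3) when 1 library was left out. The Dync2h1 difference gave 64, with 152 from only the groups compared and 28 (without Dync2h1 static replicate 3) to 151 (without Ift140 flow replicate 3). The mean of both differences, a comparison added after seeing the data, gave 63 genes and 0 members. A filter of 10 TPM, also added then, gave 30, 65 and 67 genes for the 3 differences and 0 members. Without a library the mean gave 29 (wild-type static replicate 1) to 138 (Ift140 flow replicate 3). With the replicate number as a block the differences gave 13, 42 and 37 genes; among members the replicate block ended only the 3 Egfr calls (limma adjusted p = 0.0561, 0.0509 and 0.0598). The numbers did not pair the libraries: 6 of 18 correlated best with their own number. The causes were not tested. Depth is not known, so it sets no limit that can be given here.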
